A study of Mus musculus with 24 samples.

Results

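The genes described here are 10 genes of muscle protein breakdown: the transcription factors Foxo1 and Foxo3, the muscle ubiquitin ligases Fbxo32 and Trim63, and the autophagy and lysosome genes Map1lc3b, Gabarapl1, Bnip3, Sqstm1, Ctsl and Depp1. They were chosen by name, with earlier results of these data known. Each was taken from the probe set that the array's annotation assigns to that symbol. Of the 10 genes, 8 had a probe set, 1 each, among 14754 genes with one, and 7 of the 8 were bright enough to be tested, among 5793 tested genes. Trim63 and Bnip3 had no probe set of their own in the annotation used and were not analysed here.

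Quadriceps, a large thigh muscle, was taken from male C57BL/6J mice (the labels write C56BL/6J) and each mouse was hybridised to its own Affymetrix mouse array, 24 arrays in all. All mice ate the low fat diet during a run-in. Then 6 mice ate a high fat palm oil diet with 45% of the energy as fat for 28 days, 6 ate a low fat palm oil diet with 10% for 28 days, 6 ate the high fat diet for 3 days and 6 the low fat diet for 3 days. The labels state that mice were assigned to the diets at random. Mice of the 28 day groups were 16 weeks old and those of the 3 day groups 12 weeks old, so age and time on the diet cannot be told apart. The mice of each diet and day carried their own range of animal numbers, so the set of animals and the diet cannot be told apart either. Levels are log2 of the deposited intensity, and changes are differences of log2 levels, high fat minus low fat unless another pair is named.

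FoxO transcription factors enter the nucleus when insulin and growth factor signalling through the kinase Akt is weak, and in muscle they switch on genes of protein breakdown. Fbxo32 (atrogin-1) and Trim63 (MuRF1) mark muscle proteins for the proteasome, while the autophagy genes wrap cell contents in a membrane that fuses with the lysosome, where proteases such as cathepsin L digest them. In mouse muscle this programme is known to rise with fasting, denervation and glucocorticoids and to fall with feeding.

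The promoters of the genes that were lower together on high fat at day 3 are shown first, with the windows of 250 bases before the start of each gene (RefSeq, GRCm38.p6). RefSeq's table used here held 9 of the 10 genes, and not Fbxo32. The strands were searched for GTAAACA, the core bound by FoxO factors, for CACGTG, the E-box bound by MiT/TFE factors of lysosome genes and by others, and for AGAACA, a short element of the glucocorticoid receptor, and matches are in capitals. Among 32851 promoter windows of the same length, 3.17% held GTAAACA, 6.02% held CACGTG and 16.1% held AGAACA, on either strand. Among the 9 genes, 1 window held GTAAACA, 2 held CACGTG and 1 held AGAACA, and the windows of Map1lc3b, Sqstm1 and Depp1 below held none of the 3 motifs.
Map1lc3b (chr8:121590188-121590437, plus strand): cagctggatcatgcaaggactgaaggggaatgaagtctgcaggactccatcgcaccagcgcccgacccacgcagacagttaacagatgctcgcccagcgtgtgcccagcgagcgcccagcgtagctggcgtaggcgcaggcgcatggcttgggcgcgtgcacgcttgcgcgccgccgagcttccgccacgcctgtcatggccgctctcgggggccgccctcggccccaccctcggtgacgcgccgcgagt
Sqstm1 (chr11:50210821-50211070, minus strand): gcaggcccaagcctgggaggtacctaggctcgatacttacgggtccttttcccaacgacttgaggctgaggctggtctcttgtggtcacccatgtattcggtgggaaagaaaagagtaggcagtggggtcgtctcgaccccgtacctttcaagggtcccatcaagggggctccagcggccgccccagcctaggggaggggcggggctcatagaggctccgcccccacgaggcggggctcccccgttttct
Ctsl (chr13:64370521-64370770, minus strand): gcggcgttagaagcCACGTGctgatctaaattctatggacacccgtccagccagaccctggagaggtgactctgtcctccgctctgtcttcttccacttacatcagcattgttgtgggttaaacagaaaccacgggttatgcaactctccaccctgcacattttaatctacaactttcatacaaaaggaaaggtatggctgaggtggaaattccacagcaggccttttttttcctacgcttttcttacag
Depp1 (chr6:116650434-116650683, plus strand): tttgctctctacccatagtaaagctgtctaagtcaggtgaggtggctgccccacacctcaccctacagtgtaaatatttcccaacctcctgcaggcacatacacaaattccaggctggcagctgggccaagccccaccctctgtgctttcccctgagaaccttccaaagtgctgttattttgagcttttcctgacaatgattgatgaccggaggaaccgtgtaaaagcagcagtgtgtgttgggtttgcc
The Ctsl window carried the E-box 236 to 231 bases before the start that the table gives; this start lies inside the gene as RefSeq's gene table draws it, so the window covers the first part of the gene and not the bases before its outermost start. The Bnip3 window carried an E-box 108 to 103 bases before the start. Trim63 had the only FoxO core among these windows, on the reverse strand 194 to 188 bases before the start and next to the reverse of AGAACA at 200 to 195, and this stretch is shown because both motifs lie in it.
Trim63 (chr4:134314905-134314944, plus strand): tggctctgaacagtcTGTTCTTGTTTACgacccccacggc

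After 3 days on high fat, 5 of the 7 tested genes were lower than on low fat and none was higher, in limma's test with Benjamini-Hochberg adjustment over all tested genes. Fbxo32 was 3.38-fold lower, the FoxO target Depp1 5.53-fold lower, and Map1lc3b, Sqstm1 and Ctsl 1.24-fold, 1.30-fold and 1.26-fold lower. After 28 days only Ctsl passed the test among the 7, again lower on high fat. In the comparison at day 3, 14.9% of all tested genes were called (7.99% higher and 6.87% lower), and at day 28 12.5% were called (5.35% higher and 7.18% lower). The 7 genes were chosen with earlier results of these data known, so setting them beside these shares is a description only. With the median of each array subtracted, the share of higher genes among the called genes at day 3 was 42.9%, against 53.8% as deposited, while the 5 genes were called under both scalings. The median change of the 7 genes was -0.33 at day 3 and -0.12 at day 28, where the medians of all tested genes were -0.01 and 0.01.

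**Figure D1:**
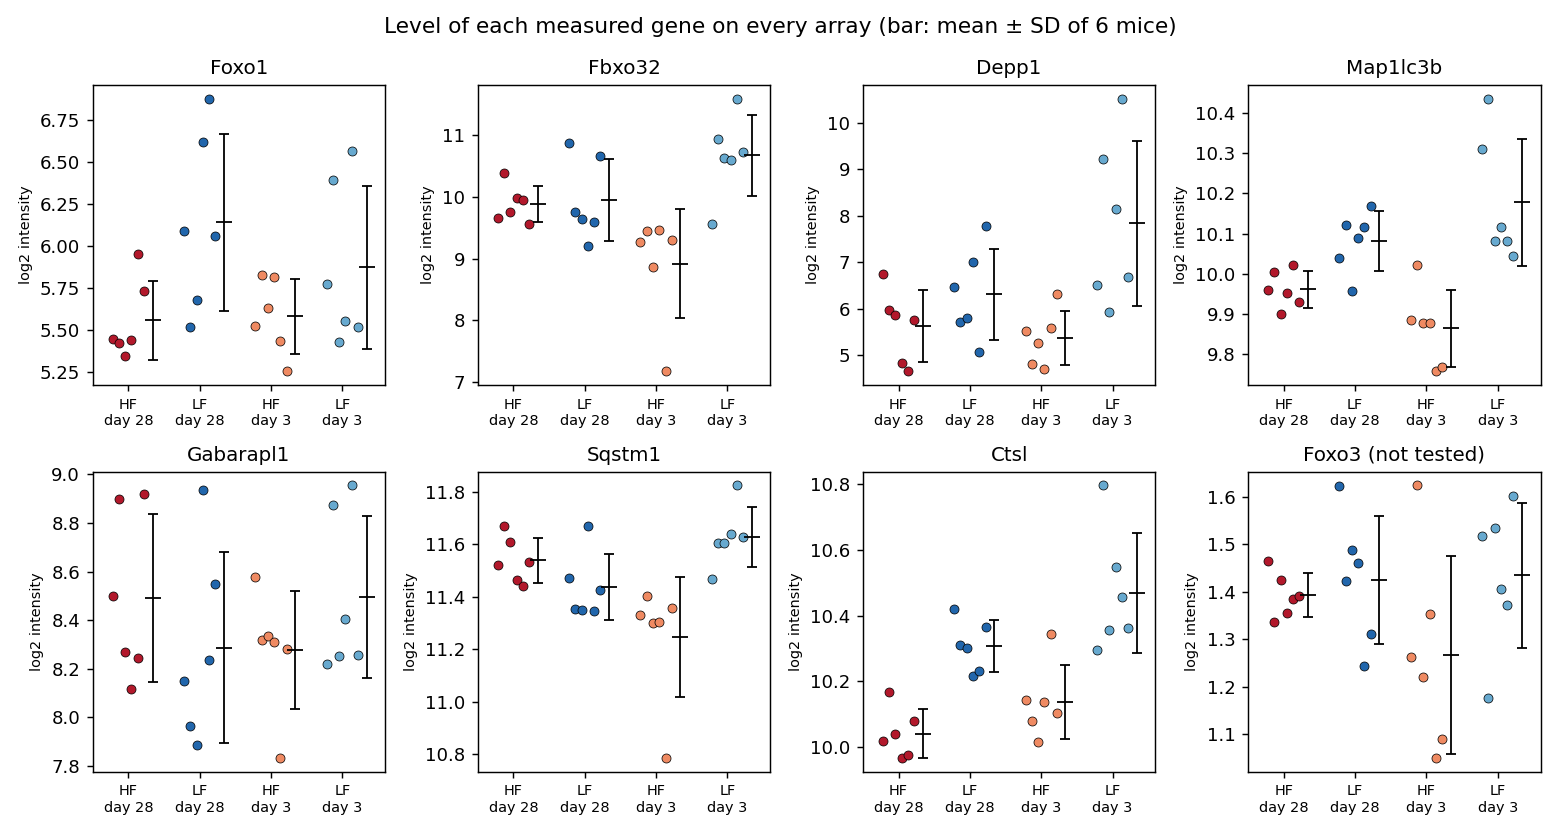
Log2 intensity of the 8 measured genes on each of the 24 arrays (points, 6 mice a group, high fat (HF) left of low fat (LF) within each day); the bar beside each group is the mean and SD. Fbxo32, Map1lc3b and Sqstm1 of the day 3 groups do not overlap, with every high fat mouse below every low fat mouse, as in 2.59% of tested genes. The Foxo3 probe set stays between 1.05 and 1.62 on every array.

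Foxo1, a FoxO factor that Akt phosphorylates, had no called change. Its log2 level on high fat at day 3 had a lowest value of 5.25, a median of 5.58 and a highest of 5.82, against 5.43, 5.66 and 6.57 on low fat. The groups overlapped, with 1 of 6 high fat mice below every low fat mouse, and the change was -0.29 ± 0.22 (SE; adjusted p = 0.389 by limma), with a 95% interval for that gene alone of -0.74 to 0.15. At day 28 the lowest, median and highest were 5.35, 5.44 and 5.95 on high fat, against 5.52, 6.07 and 6.88 on low fat. Here 4 of 6 high fat mice lay below every low fat mouse, and the change of -0.58 ± 0.22 (SE) had an adjusted p of 0.0808 by limma. This value lies next to the threshold: without low fat day 28 replicate 2 the change was -0.71 with an adjusted p of 0.0319 by limma, and without low fat day 28 replicate 3 it was -0.68 with 0.0475.

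The Foxo3 probe set was dim everywhere. Foxo3, the factor that drives both atrophy ligases and autophagy genes in mouse muscle, read between 1.05 and 1.62 on the log2 scale and passed a level of 4 on 0 of 24 arrays, so that it was not tested. These readings bound the probe set and not the Foxo3 transcript.

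Fbxo32, the muscle F-box protein of the atrophy ligases, separated the diets at day 3. On high fat at day 3 it had a lowest log2 level of 7.17, a median of 9.28 and a highest of 9.46, against 9.56, 10.68 and 11.59 on low fat. All 6 high fat mice were below all 6 low fat mice, and 2.59% of tested genes were lower without overlap in this way. The change was -1.76 ± 0.36 (SE; adjusted p = 0.00201 by limma). High fat replicate 5 held the lowest level and low fat replicate 5 the highest, and without high fat day 3 replicate 5 the change was -1.41. At day 28 the lowest, median and highest were 9.55, 9.85 and 10.38 on high fat, against 9.20, 9.69 and 10.87 on low fat, so that the high fat range lay within the low fat range. The change there was -0.07 (adjusted p = 0.927 by limma), with a 95% interval of -0.81 to 0.67 that does not reach the change seen at day 3.

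In order of the group means, Fbxo32 stood at 8.92 ± 0.88 on high fat at day 3, 9.88 ± 0.29 on high fat at day 28, 9.95 ± 0.66 on low fat at day 28 and 10.67 ± 0.66 on low fat at day 3 (SD, n = 6 each). The middle 2 groups did not differ beyond their spread. On high fat, all 6 day 28 mice were above all 6 day 3 mice (change, day 28 minus day 3, 0.96 ± 0.36 SE; adjusted p = 0.211 by limma), and on low fat the same change was -0.72 (adjusted p = 0.313 by limma). How many of all tested genes separated in this way between days was not counted. The diet effect at day 28 minus that at day 3 was 1.68 ± 0.51 (SE) with an adjusted p of 0.0797 by limma, so that the larger difference at day 3 was not called as a difference between days. In that comparison 1.38% of tested genes were called.

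Depp1, a small protein whose gene is a direct FoxO target in human cells, had the largest fold among the 7 genes and the widest spread. On high fat at day 3 the lowest, median and highest log2 levels were 4.71, 5.39 and 6.32, against 5.94, 7.41 and 10.52 on low fat. In 5 of 6 high fat mice the level was below every low fat mouse, and high fat replicate 6 lay above low fat replicate 3. The change was -2.47 ± 0.61 (SE; adjusted p = 0.00852 by limma), and the low fat group spread more widely (SD 1.78, n = 6) than the high fat group (SD 0.59, n = 6). At day 28 the lowest, median and highest were 4.65, 5.81 and 6.74 on high fat, against 5.07, 6.13 and 7.79 on low fat. These groups overlapped (change -0.67; adjusted p = 0.540 by limma). The diet effect of Depp1 at day 28 minus that at day 3 was 1.80 ± 0.86 (SE; adjusted p = 0.262 by limma), and on low fat the change, day 28 minus day 3, was -1.53 (adjusted p = 0.211 by limma).

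**Figure D2:**
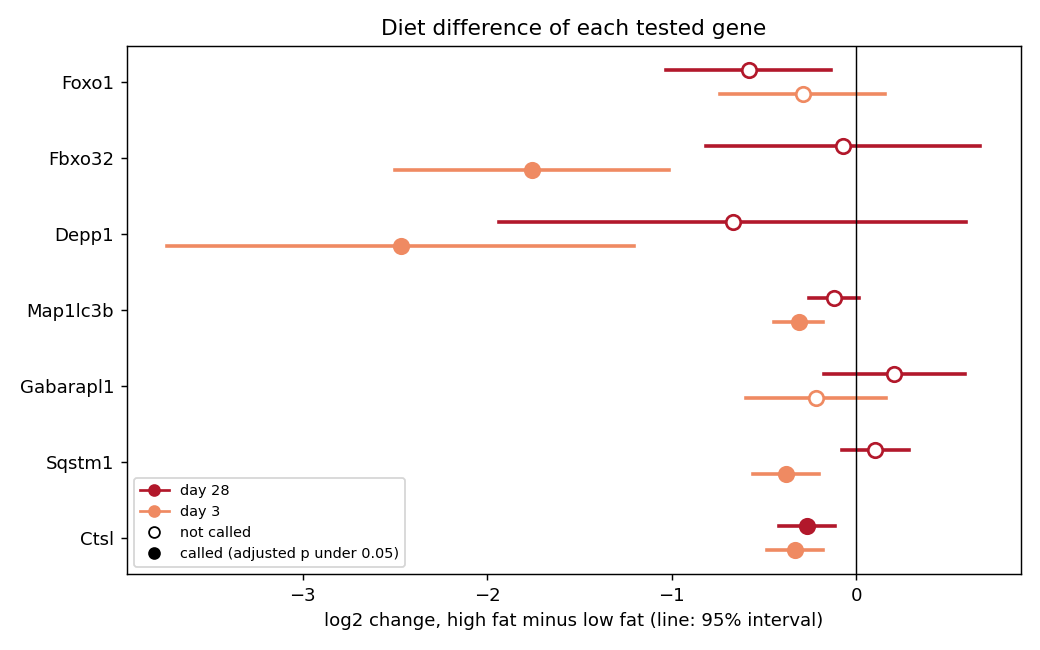
Diet difference of each tested gene in log2 units (x axis, high fat minus low fat) at day 28 (red) and day 3 (orange), with its 95% interval as a line; filled points passed the test. Of the 7 genes, 5 are filled at day 3 and 1, Ctsl, at day 28, and the interval of Fbxo32 at day 28 crosses 0.

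Of the genes of the autophagosome, Map1lc3b and Sqstm1 were called at day 3 and Gabarapl1 was not. Whether their changes differ from each other was not tested. Map1lc3b encodes LC3B, the protein that is attached to the growing autophagosome membrane, and on high fat at day 3 its lowest, median and highest log2 levels were 9.76, 9.88 and 10.02, against 10.04, 10.10 and 10.44 on low fat. The groups did not overlap, as in 2.59% of tested genes that were lower without overlap at day 3, although the gap between them was small. The change was -0.31 ± 0.06 (SE; adjusted p = 0.00216 by limma). At day 28 they were 9.90, 9.96 and 10.02 on high fat, against 9.96, 10.10 and 10.17 on low fat. Of the high fat mice 3 of 6 lay below every low fat mouse, and the change was -0.12 (adjusted p = 0.252 by limma). The group means of Map1lc3b ran in the order of Fbxo32, at 9.86 ± 0.10 on high fat at day 3, 9.96 ± 0.05 on high fat at day 28, 10.08 ± 0.07 on low fat at day 28 and 10.18 ± 0.16 on low fat at day 3 (SD, n = 6 each).

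Gabarapl1, a relative of LC3B in the same conjugation system, passed the test in neither comparison. On high fat at day 3 its lowest, median and highest log2 levels were 7.83, 8.31 and 8.58, against 8.22, 8.33 and 8.95 on low fat, and the medians of these overlapping groups lay close together. Its change was -0.22 ± 0.18 (SE; adjusted p = 0.452 by limma; 95% interval -0.60 to 0.16). At day 28 the levels were 8.12, 8.38 and 8.92 on high fat, against 7.89, 8.19 and 8.93 on low fat (change 0.21; adjusted p = 0.529 by limma; 95% interval -0.17 to 0.59). The interval at day 3 includes 0 and also the change of Map1lc3b on that day.

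Sqstm1 encodes p62, the receptor that carries ubiquitin-tagged cargo to LC3. On high fat at day 3 its lowest, median and highest log2 levels were 10.78, 11.32 and 11.40, against 11.47, 11.62 and 11.82 on low fat. The groups did not overlap, as in 2.59% of tested genes that were lower without overlap at day 3, and the change was -0.38 ± 0.09 (SE; adjusted p = 0.00489 by limma). Without high fat day 3 replicate 5, the lowest array, it was -0.29 with an adjusted p of 0.00554 by limma. At day 28 the levels were 11.44, 11.53 and 11.67 on high fat, against 11.35, 11.39 and 11.67 on low fat. These groups overlapped, and the change was 0.10 (adjusted p = 0.509 by limma; 95% interval -0.08 to 0.28).

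Sqstm1 was the 1 gene of the 7 whose diet effect was called as different between the days. The effect at day 28 minus that at day 3 was 0.48 ± 0.12 (SE), with an adjusted p of 0.0499 by limma. This call sits at the threshold: with each of the 24 arrays left out in turn it was lost in 17 cases, at a value of 0.39 to 0.53 and an adjusted p of 0.0328 to 0.0865 by limma. The call was kept only without high fat day 3 replicates 2, 3 or 5, low fat day 3 replicate 1, high fat day 28 replicate 5 or low fat day 28 replicates 1 or 4. On high fat all 6 day 28 mice were above all 6 day 3 mice (change 0.29 ± 0.09 SE; adjusted p = 0.129 by limma), and on low fat 4 of 6 day 28 mice were below every day 3 mouse (change -0.19; adjusted p = 0.275 by limma). The share of all tested genes that separated in this way between days was not counted, and neither change was called.

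Ctsl, the lysosomal protease cathepsin L, was the gene called on both days. On high fat at day 28 its lowest, median and highest log2 levels were 9.97, 10.03 and 10.17, against 10.21, 10.31 and 10.42 on low fat. The groups did not overlap, as in 4.56% of tested genes that were lower without overlap at day 28. The change was -0.27 ± 0.07 (SE; adjusted p = 0.0164 by limma). On high fat at day 3 the levels were 10.01, 10.12 and 10.34, against 10.30, 10.41 and 10.80 on low fat, and 5 of 6 high fat mice were below every low fat mouse. High fat replicate 5 lay above low fat replicate 1, and the change was -0.33 ± 0.07 (SE; adjusted p = 0.00370 by limma). The diet effect at day 28 minus that at day 3 was 0.07 (95% interval -0.15 to 0.28; adjusted p = 0.782 by limma). The lowest group mean was that of high fat at day 28, where for Fbxo32 it was that of high fat at day 3, and both high fat groups (10.04 ± 0.07 at day 28 and 10.14 ± 0.11 at day 3) stood below both low fat groups (10.31 ± 0.08 at day 28 and 10.47 ± 0.18 at day 3; SD, n = 6 each).

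Between the days on one diet, 0 of the 7 genes were called on high fat and 0 on low fat by limma, where 0.552% and 0.345% of all tested genes were called. At an unadjusted p under 0.05, 2 of the 7 differed on high fat (Fbxo32 and Sqstm1) and 3 on low fat (Ctsl, Sqstm1 and Depp1), where 14.4% and 16.6% of all tested genes did.

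Markers of other cells and of slow fibres moved with the diets, while 9 of 10 fast fibre genes were not called on either day. The other fast fibre gene, Myh2, was higher on high fat (1.18 at day 3 and 0.99 at day 28, adjusted p = 0.00155 and 0.00616 by limma). The mean log2 level of 9 slow fibre genes lay between 8.36 and 10.97 on high fat at day 3, against 4.01 and 7.41 on low fat, and between 8.70 and 9.66 on high fat at day 28, against 4.27 and 7.73 on low fat, and all 9 genes were called higher on both days. Since these ranges do not overlap, slow fibre level and diet cannot be told apart in these mice, and adding the mean of the slow fibre genes to the model left 0 of the 7 genes called on either day by limma. Over all 5793 tested genes, 16 were called at day 3 and 23 at day 28 in that fit. At day 3 the changes with this covariate were -1.34 for Fbxo32 (adjusted p = 0.412), -0.16 for Depp1 (0.967), -0.23 for Map1lc3b (0.449), -0.28 for Sqstm1 (0.515) and -0.16 for Ctsl (0.642), and at day 28 that of Ctsl was -0.12 (0.897). Of 7 tested adipocyte genes, 3 were lower on high fat at day 3 and 7 at day 28, with list means of 5.56 to 8.84 on high fat at day 3, against 6.33 to 8.95 on low fat, and of 5.23 to 6.64 on high fat at day 28, against 7.99 to 9.56 on low fat. With the adipocyte mean as a covariate, Fbxo32 (-2.001, adjusted p = 0.00357 by limma), Map1lc3b (-0.36, 0.00387) and Sqstm1 (-0.49, 0.00253) were called at day 3, while Ctsl (-0.23, 0.0542) and Depp1 (-1.96, 0.0705) were not.

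Macrophage genes were lower on high fat too. Of 9 tested macrophage genes, 1 was lower on high fat at day 3 and 9 at day 28, with list means of 5.47 to 6.26 on high fat at day 28, against 6.29 to 7.32 on low fat, and of 5.75 to 6.64 on high fat at day 3, against 5.98 to 7.29 on low fat. With the macrophage mean as a covariate, Ctsl changed by -0.12 at day 28 (adjusted p = 0.752 by limma), and with the adipocyte mean by -0.04 (adjusted p = 0.930), while at day 3 all 5 genes were called with the macrophage mean. At day 28 neither mean overlaps between the diets, so that neither can be told apart from diet. Over all 5793 tested genes, 25 were called at day 28 with the macrophage mean and 23 with the adipocyte mean, against 726 without a covariate. Of 8 tested endothelial genes 5 were higher on high fat at day 3 and 0 at day 28. Of 7 fibroblast genes 3 were higher at day 3, among them the collagens Col1a1 (1.22, adjusted p = 0.0287 by limma) and Col1a2 (0.89, 0.0204), and 1 was lower at day 28. Of 4 tested smooth muscle and pericyte genes 3 were higher at day 3, among them Tagln (0.85, adjusted p = 0.00104 by limma), and 1 at day 28. The fibroblast list means lay between 9.43 and 9.97 on high fat at day 3, against 8.95 and 9.99 on low fat, and those of smooth muscle and pericytes between 6.95 and 7.26, against 6.34 and 6.85. The part of these cells in the results above was not tested, and of 2 nerve and Schwann cell genes with a probe set 0 were bright enough to be tested. The muscle markers were present at list means of 12.64 to 12.81 on all arrays. In bulk tissue, fewer cells of a type and less RNA per cell cannot be told apart.

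RNA quality was read from the control probe sets of beta-actin, as the log2 ratio of 3 prime to 5 prime. High fat day 28 replicate 1, which was kept, read 0.24. The ratio was highest on high fat day 3 replicates 4 and 6 (0.37 and 0.25), high fat day 28 replicate 5 (0.25) and low fat day 28 replicate 5 (0.36). On these 4 arrays the same ratio of Gapdh, another control, was -0.11 to -0.05. Without these 4 arrays the same 5 of 7 genes were called at day 3, whereas Ctsl at day 28 had a change of -0.27 with an adjusted p of 0.0579 by limma and the call of Sqstm1 between the days was lost (0.53, adjusted p = 0.104). For low fat day 3 replicate 1, the labels do not name the DNase step given for the other arrays, and without it all 5 genes were called at day 3 too.

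The genes upstream of FoxO were called about as often as all tested genes. In a list of 20 FoxO family members and regulators, 13 were tested, 2 were lower on high fat at day 3 and 2 at day 28, and none was higher, which is 15.4% of the list on each day, with list medians of -0.05 and -0.01. Akt2, the Akt kinase most tied to insulin action in muscle, had a change of -0.44 ± 0.06 at day 3 (SE; adjusted p = 5.01e-05 by limma), with log2 levels of 7.78 to 8.06 on high fat, against 8.21 to 8.47 on low fat. The groups of Akt2 did not overlap at day 3, as in 2.59% of tested genes that were lower without overlap. At day 28 its change was -0.05, and the difference between the days was called (0.40, adjusted p = 0.0286 by limma; up to 0.0585 without high fat day 3 replicate 1, high fat day 28 replicate 2 or low fat day 28 replicate 5). Igf1, the growth factor that activates Akt, was lower on high fat at day 28, at 4.90 to 5.93 against 6.35 to 6.87 on low fat (change -1.13 ± 0.20 SE; adjusted p = 0.000664 by limma). Its change at day 3 was 0.10, and the difference between the days was called as well (-1.23, adjusted p = 0.0356 by limma). That call was lost without high fat day 3 replicate 6, low fat day 3 replicates 3 or 6, high fat day 28 replicates 1, 2 or 4 or low fat day 28 replicate 5 (adjusted p up to 0.0686). Smad3, a signal carrier of myostatin and TGF-beta, changed by -0.49 at day 3 (adjusted p = 0.0334 by limma), a call lost without high fat day 3 replicates 4 or 6 or low fat replicates 3, 5 or 6 (adjusted p up to 0.0889). Sgk1, a kinase that phosphorylates FoxO, changed by -0.43 at day 28 (adjusted p = 0.0425 by limma), and this call was lost without high fat day 3 replicate 1, high fat day 28 replicates 1, 3, 4 or 5 or low fat day 28 replicates 1, 2, 3, 4 or 6 (adjusted p up to 0.120).

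Other known FoxO targets were called in 57.9% of the list at day 3, against 14.9% of all tested genes. The list was chosen with earlier results of these data known. Of 24 listed, 19 were tested, and 10 were lower and 1 higher (Sod2, the mitochondrial superoxide dismutase, 0.18) on high fat at day 3, with a list median of -0.41, and adjusted for the mean of the slow fibre genes 0 were called. That fit called 16 of all 5793 tested genes at day 3, and the slow fibre mean separates the diets without overlap. Klf15, which controls amino acid catabolism genes in muscle, had log2 levels of 7.22 to 7.98 on high fat at day 3, against 8.63 to 9.55 on low fat (change -1.21 ± 0.16 SE; adjusted p = 1.98e-05 by limma). Its groups did not overlap at day 3, as in 2.59% of tested genes that were lower without overlap. Its diet effect was called as different between the days (0.88, adjusted p = 0.0457 by limma). The call between days was lost in 19 of 24 leave-outs (adjusted p up to 0.0836) and kept without high fat day 3 replicates 2 or 4, low fat day 3 replicates 1 or 4 or low fat day 28 replicate 6. Nfil3, a transcription factor of the clock, changed by -1.29 ± 0.32 at day 3 and by -1.18 ± 0.32 at day 28 (SE; adjusted p = 0.00805 and 0.0144 by limma). Gadd45a, a stress gene that promotes atrophy in mouse muscle, changed by -0.98 at day 3 and -1.0002 at day 28 (adjusted p = 0.0411 and 0.0415 by limma), both calls close to the threshold. The call at day 3 was lost without high fat replicates 1, 4, 5 or 6 or low fat replicates 2, 4 or 5 of that day (adjusted p up to 0.106 by limma), and the call at day 28 without high fat replicates 1, 2, 4 or 5 or low fat replicates 1, 4 or 6 of that day (up to 0.111).

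At day 28, 5 of the 19 FoxO targets (26.3%) were lower on high fat and 0 higher, with a list median of -0.15, where 12.5% of all tested genes were called. The count was 3 without high fat day 28 replicate 1, and 0 with the adipocyte or the macrophage mean as a covariate. Those fits called 23 and 25 of all 5793 tested genes at day 28, where both means separate the diets without overlap. The largest change was that of Pck1, the enzyme of glyceroneogenesis and gluconeogenesis, which is also on the adipocyte list: -4.87 ± 0.61 at day 28 and -2.44 ± 0.61 at day 3 (SE; adjusted p = 1.75e-05 and 0.00908 by limma). The adipocyte mean contains Pck1, so that this covariate adjusts Pck1 in part for itself. Angptl4, an inhibitor of lipoprotein lipase that fat cells also make, changed by -1.62 at day 28 (adjusted p = 0.0178 by limma; 0.0532 without high fat day 28 replicate 1). With the adipocyte mean as a covariate the change of Angptl4 was 0.69 (adjusted p = 0.674 by limma). Pik3ip1, an inhibitor of PI3-kinase, was the second target called as different between the days (1.26, adjusted p = 0.0249 by limma; 0.0502 without high fat day 28 replicate 2), named after its values were seen, with changes of 0.36 at day 28 and -0.90 at day 3. Klf15, Sesn1, Ddit4 and Tsc22d3 of this list are also on the list of glucocorticoid receptor targets.

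**Figure D3:**
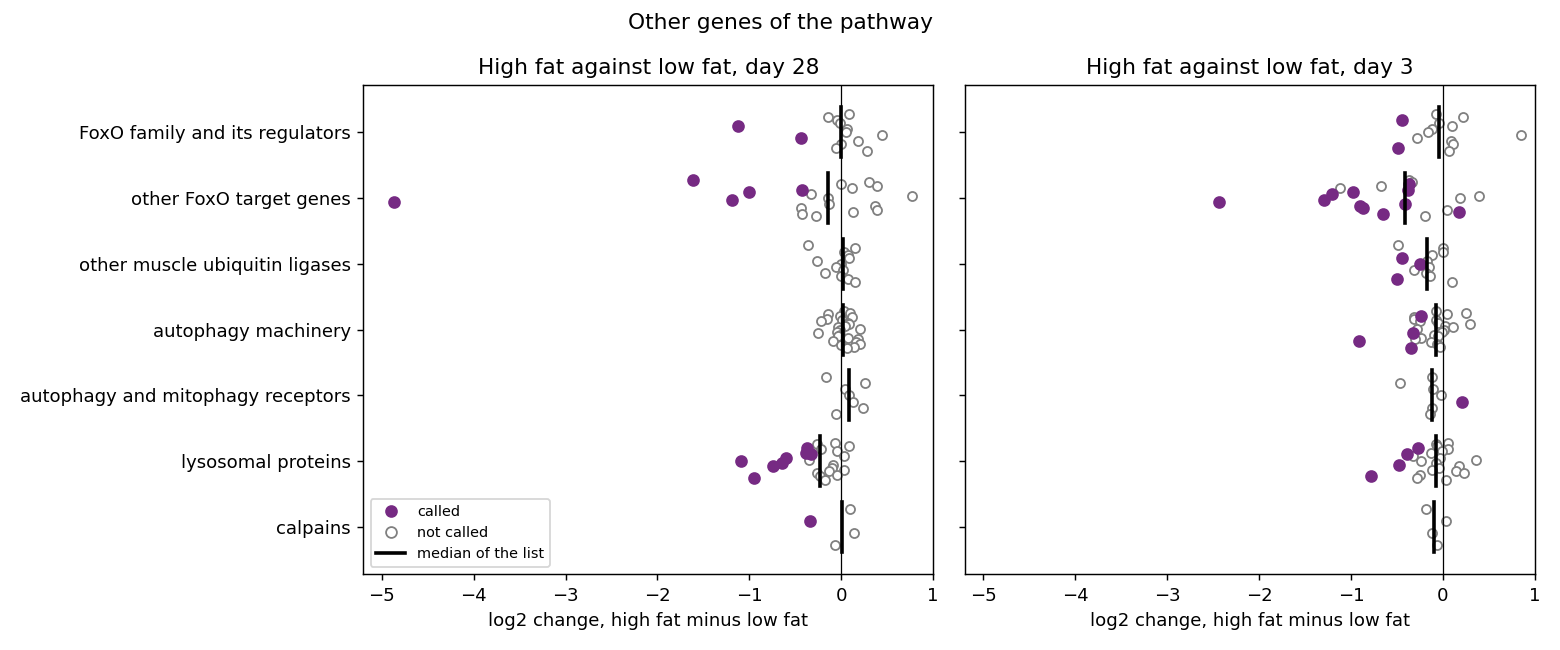
Log2 change, high fat minus low fat (x axis), of every tested gene of 7 pathway lists at day 28 (left) and day 3 (right); filled points passed the test and the black bar is the list's median. The FoxO target list has 5 filled points at day 28 and 11 at day 3, and the autophagy machinery 0 at day 28 and 4 at day 3.

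Glucocorticoid receptor targets, which include activators of the atrophy ligases, were lower in 9 of 15 tested genes at day 3 and in 4 at day 28, with none higher and list medians of -0.83 and -0.43. These are 60.0% and 26.7% of the list, against 14.9% and 12.5% of all tested genes. This list too was chosen with earlier results of these data known. Adjusted for the mean of the slow fibre genes, 0 were called on either day, where that fit called 16 of all 5793 tested genes at day 3 and 23 at day 28. Cebpd, a transcription factor induced by glucocorticoids, changed by -1.71 ± 0.31 at day 3 (SE; adjusted p = 0.000648 by limma). Glul, the glutamine synthetase of muscle, changed by -0.998 at day 3 and by -1.11 at day 28 (adjusted p = 0.000298 and 8.94e-05 by limma). Zbtb16, a strongly inducible target, changed by -1.04 at day 3 (adjusted p = 0.0285 by limma), lost without high fat replicate 5 or low fat replicates 5 or 6 (adjusted p up to 0.0702). At day 28 Mt1, a metallothionein, changed by -1.80 and Fkbp5, a chaperone of the receptor, by -0.99 (adjusted p = 0.0292 and 0.0314 by limma). The call of Mt1 was lost without high fat day 28 replicate 4 or low fat replicates 4, 5 or 6, and that of Fkbp5 without high fat day 28 replicates 2, 4 or 6 or low fat replicates 4, 5 or 6 (adjusted p up to 0.0820 and 0.0785 by limma). The list's count at day 28 was 1 without high fat day 28 replicate 4 or low fat replicates 4 or 6 and 2 without low fat replicate 5.

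Among other ubiquitin ligases and proteasome-linked genes of muscle, 13 of 22 were tested. Of these, 3 (23.1%) were lower on high fat at day 3 and none higher (list median -0.17), where 14.9% of all tested genes were called. At day 28, 0 were called by limma (median 0.02), and 1 of the 13 had an unadjusted p under 0.05, against 24.9% of all tested genes. Zfand5, a ubiquitin-binding protein that rises in atrophying mouse muscle, had log2 levels of 8.42 to 8.94 on high fat at day 3, against 9.01 to 9.52 on low fat, and a change of -0.50 ± 0.10 (SE; adjusted p = 0.00268 by limma). Its groups did not overlap, as in 2.59% of tested genes that were lower without overlap at day 3. Rnf114, a RING ligase, changed by -0.44 ± 0.10 (SE; adjusted p = 0.00313 by limma). Trim54, the MuRF3 relative of Trim63, changed by -0.25 (adjusted p = 0.0396 by limma), a call lost without high fat day 3 replicates 1, 3, 4, 5 or 6 or low fat replicates 3, 4 or 5 (adjusted p up to 0.101).

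The autophagy machinery beyond the named genes was called about as often as all tested genes at day 3. Of 32 listed genes 26 were tested, and 4 (15.4%) were lower on high fat at day 3 and none higher, with a list median of -0.07. Ulk1, the kinase that starts autophagy, had log2 levels of 5.23 to 6.73 on high fat at day 3, against 6.73 to 7.50 on low fat, with a change of -0.91 ± 0.20 (SE; adjusted p = 0.00396 by limma). The groups of Ulk1 touched, with 1 high fat mouse at the level of the lowest low fat mouse. Wipi2, which brings the conjugation complex to the membrane, changed by -0.34 ± 0.08 (SE; adjusted p = 0.00399 by limma). Map1lc3a, the LC3A relative of Map1lc3b, changed by -0.33 and Atg12, a protein of the conjugation complex, by -0.24 (adjusted p = 0.0150 and 0.0107 by limma). Without high fat day 3 replicate 3 the count was 8, and adjusted for the mean of the slow fibre genes it was 0. With that adjustment 16 of all 5793 tested genes were called at day 3. At day 28, 0 of the 26 were called by limma (median 0.02), and 2 had an unadjusted p under 0.05, against 24.9% of all tested genes. The count of calls at day 28 was 1 without high fat day 3 replicate 6, low fat day 3 replicate 5 or low fat day 28 replicate 2. Of 7 tested autophagy and mitophagy receptors, 1 was called at day 3, Phb2 of the mitochondrial inner membrane, which was higher on high fat (0.21 ± 0.05 SE; adjusted p = 0.00858 by limma). The count of receptors at day 3 was 2 without high fat replicates 3 or 4 or low fat replicate 4. At day 28 it was 0 by limma, and 1 without low fat day 3 replicate 5. Of the 7 receptors, 3 had an unadjusted p under 0.05 by limma at day 28, against 24.9% of all tested genes.

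Lysosomal genes were lower on high fat in some members on both days. Of 23 tested, 4 (17.4%) were lower at day 3 (list median -0.08) and 8 (34.8%) at day 28 (median -0.23), and none was higher. Of all tested genes 14.9% were called at day 3 and 12.5% at day 28. The count at day 28 was 0 when adjusted for the slow fibre, adipocyte or macrophage mean (list medians -0.04, -0.18 and -0.05) and 5 without the 4 arrays of highest beta-actin ratio. The fits with these 3 means called 23, 23 and 25 of all 5793 tested genes at day 28. Each mean separates the diets without overlap on that day, so that it cannot be told apart from diet. At day 3 the 4 were Npc1, the cholesterol exporter (-0.79 ± 0.16 SE; adjusted p = 0.00185 by limma), Gaa, the acid glucosidase that breaks down glycogen (-0.48 ± 0.09 SE; 0.00110), Ctsd, the protease cathepsin D (-0.39 ± 0.07 SE; 0.000606) and Atp6v1b2, a subunit of the proton pump (-0.27 ± 0.08 SE; 0.0273). The call of Atp6v1b2 was lost without high fat day 3 replicates 4 or 6 or low fat replicates 2 or 5 (adjusted p up to 0.0732 by limma). Of these 4, Ctsd (-0.33; adjusted p = 0.00214 by limma) and Atp6v1b2 (-0.37; 0.00360) were called lower at day 28 too. At day 28 the largest changes were those of Ctss, cathepsin S of antigen-presenting cells (-1.09 ± 0.27 SE; adjusted p = 0.00944 by limma), Npc2, the partner of Npc1 (-0.95 ± 0.13 SE; 4.20e-05), Gusb, a glucuronidase (-0.74 ± 0.20 SE; 0.0170) and Ctsz, cathepsin Z (-0.64 ± 0.14 SE; 0.00238). Gusb lost its call without high fat day 28 replicate 4 or low fat replicate 6 (adjusted p up to 0.0525 by limma), and with the macrophage mean as a covariate the change of Ctss was 0.25 (adjusted p = 0.657 by limma). Of 4 tested calpains, the calcium-activated proteases, 0 were called at day 3 by limma. None had an unadjusted p under 0.05 by limma at day 3, against 29.5% of all tested genes. Capn2 was lower on high fat at day 28 (-0.34 ± 0.08 SE; adjusted p = 0.00860 by limma).

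**Figure D4:**
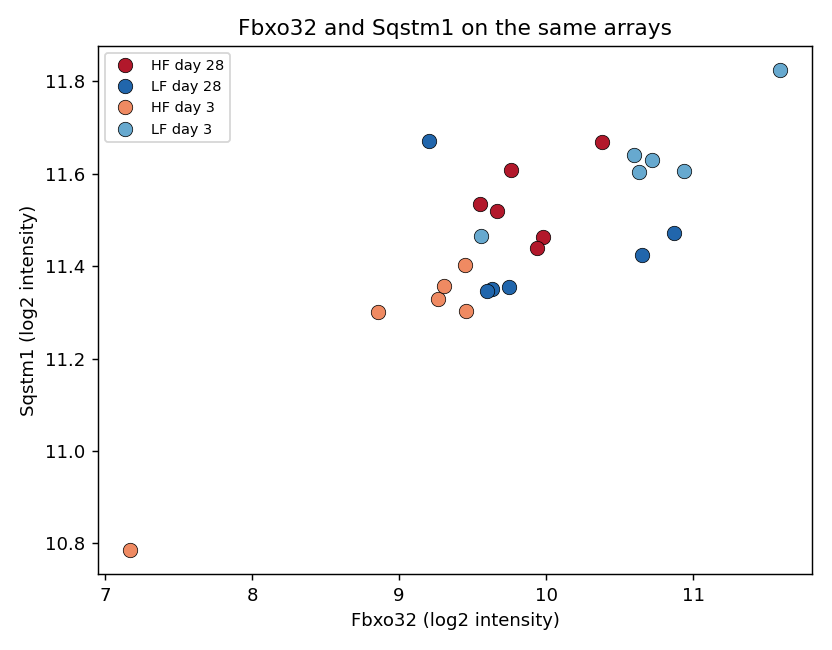
Log2 intensity of Sqstm1 (y axis) against that of Fbxo32 (x axis) on the 24 arrays, coloured by group. The lowest point of both genes is high fat day 3 replicate 5, at 7.17 for Fbxo32, and the highest of both is low fat day 3 replicate 5, at 11.59.

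How the genes varied within the groups was compared in 27 pairs of genes or marker means, as deviations from the group means over the 24 arrays. Fbxo32 and Sqstm1 gave a Pearson r of 0.67 (permutation p = 0.0168, adjusted 0.323) and a Spearman rho of 0.52 (permutation p = 0.0192, adjusted 0.319). The 2 arrays whose Fbxo32 deviated most from its group mean were high fat day 3 replicate 5 and low fat day 3 replicate 1. Without them r was 0.29, so that the size of r depends in part on those arrays. The deviations were still taken from group means that include them. Within the groups r was 0.38 on high fat and -0.18 on low fat at day 28, and 0.98 on high fat and 0.94 on low fat at day 3. None of the 27 pairs passed the adjustment.

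The genes whose levels over all 24 arrays were most like those of Fbxo32 by Pearson r were Tmem140 (0.86), Asb2 (0.83) and Gaa (0.83), and as deviations from the group means the values were 0.69, 0.73 and 0.64. Those most like Foxo1 were Mt1 (0.88), Tgm2 (0.84) and Hmox1 (0.84), with 0.81, 0.77 and 0.76 within groups. These are descriptions over arrays that share the same groups. Asb2 is an adaptor of a muscle ubiquitin ligase, and Hmox1 breaks down heme.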

How the data were processed

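Quadriceps RNA of 24 mice was measured on 24 Affymetrix arrays. Each value deposited by the authors is the linear intensity of a probe set on an array. GCRMA made these intensities, per the submitters' processing notes, and corrects background from probe sequence and normalizes the arrays. Its version, the probe definition and the genome build behind the probe sets are not given in the sources used here. Values ran from 0.881 to 20520, array medians from 6.56 to 6.90, and the number of arrays limits the precision. Dim values depend on the background correction.

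Of 16361 probe sets, 64 are controls, 14771 are annotated to 1 gene, 589 to several (named after none) and 937 are not listed. Where a gene had several probe sets, the one of highest mean was used; no gene of the 10 had several. Log2 was taken with no offset, and a gene was tested when its log2 level was over 4 on at least 6 arrays. A model of the 4 group means over all 24 arrays was fitted in R 4.3.3 with limma 3.58.1 (20 residual degrees of freedom). Tests were two-sided, with Benjamini-Hochberg adjustment over 5793 genes and calls at an adjusted p under 0.05. The fit was checked on simulated data. Figures were drawn with matplotlib 3.10.9.

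Groups came from the labels, and each array is a separate mouse. The 10 genes, the lists and the marker lists were chosen with earlier results of these data known. Named were the 10 genes, and from each pathway list up to 4 called genes of largest absolute change on each day. Relations were tested with 100000 permutations within groups. Alternatives were other normalizations, filters, an offset, weights, a replicate block, marker means as covariates and leaving out arrays; those for the pathway lists were chosen after seeing the data. No set test was run. Promoter sequences are RefSeq's, GRCm38.p6.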

Additional observations from a re-analysis of the deposited data

Results flagged for a closer look

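Among 44 sets of 6 arrays checked for a value far from the others, 3 had one, and chance flags about 1 in 20. High fat day 3 replicate 5 had the lowest Fbxo32, at 7.17 where the next was 8.86, and its gap was 0.737 of the group's range. The same array had the lowest Sqstm1, at 10.785 where the next was 11.30, with a gap of 0.835 of the range. High fat day 28 replicate 2 had the highest macrophage mean, at 6.26 where the next was 5.63, with a gap of 0.788 of the range. High fat day 3 replicate 5 also had the highest adipocyte mean of its group, at 8.84. The diet effect of Sqstm1 differed between the days by 0.48 in limma's interaction test. What lies behind these values was not tested.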

How the results depend on the processing

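The 5 of 7 genes called at day 3 stayed 5 under every alternative except the slow fibre mean (0) and the adipocyte mean (3) as covariates, and were 5 with any 1 array left out. The count at day 28 was 1, but 0 with the slow fibre, adipocyte or macrophage mean as a covariate or without the 4 arrays of highest beta-actin ratio, and 1 to 2 with 1 array left out. The count for the difference between days was 1, but 0 with no filter on low values, with each of the 3 marker means or without those 4 arrays, 2 with array weights (Fbxo32 then 1.43, adjusted p = 0.0391 by limma), and 0 to 1 with 1 array left out. Between days on one diet it was 0 throughout.

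Signs turned in these results, of which Gadd45a, Mt1, Angptl4 and Ctss were called as reported and the others were not. Foxo1 between days on high fat, -0.02 as reported, was 0.0050 with array medians subtracted, 0.0259 and 0.12 with the adipocyte and macrophage means, and -0.10 to 0.0252 with 1 array left out. Fbxo32 at day 28 was 0.0084 with array weights, 0.30 and 0.25 with the slow fibre and macrophage means, and -0.22 to 0.11 with 1 array left out. With the slow fibre mean, Foxo1 was 0.49 at day 3 and 0.11 at day 28, Gabarapl1 0.25 at day 3, Depp1 1.39 at day 28, Gadd45a 0.46 at day 3 and 0.28 at day 28, and Mt1 0.0149 at day 28. With the adipocyte mean, Sqstm1 was -0.13, Depp1 0.45 and Angptl4 0.69 at day 28. With the macrophage mean, Depp1 was 0.62 and Ctss 0.25 at day 28. The cause was not tested.

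Replicate numbers are shared across groups but belong to different mice. Same-numbered arrays correlated at -0.38 to 0.54 over 36 pairs, 15 of them over 0.1, and 4 of 24 arrays correlated best with their own number. With a replicate block the counts were 5, 1, 1, 0 and 0, as without it, while 176 genes were called for the difference between days, against 80.

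Over all genes, the 861 calls at day 3 became 507 with only the arrays compared and 16 with the slow fibre mean, and the 726 at day 28 became 23, 23 and 25 with the slow fibre, adipocyte and macrophage means. The 80 calls for the difference between days ranged from 0 to 278, the 32 between days on high fat from 3 to 106 and the 20 on low fat from 0 to 132. With the slow fibre mean 0 genes of the 8 pathway lists were called on either day except 1 FoxO target at day 28, and with the adipocyte or macrophage mean 0 were called at day 28. Of the 19 other FoxO targets, 6 were called at day 3 with only the arrays compared, 7 without the 4 beta-actin arrays and 7 with the macrophage mean, against 11. At day 28, without the 4 beta-actin arrays, the counts were 2 FoxO targets, against 5, and 1 glucocorticoid receptor target, against 4. In the slow fibre fit the covariate separates the diets without overlap, which leaves little to estimate the diet effect. At day 28 the adipocyte and macrophage means separate the diets without overlap too.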
